A study of Mus musculus with 2 samples.

Results

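The 9 genes described here encode scavenger and endocytic receptors outside the hemoglobin and hemopexin group, namely Stab1, Stab2, Lyve1, Mrc1, Msr1, Colec12, Scara5, Cd36 and Scarb1. They were taken by name from 21887 protein-coding genes, and all 9 were found in the gene annotation. Open chromatin had been profiled by droplet-based single-nucleus ATAC-seq, in which a transposase cuts accessible DNA and each pair of cuts is read as a fragment. The nuclei came from non-parenchymal liver cells selected on F4/80 beads, F4/80 being a macrophage surface marker, so cells of other types are those carried along by the enrichment. The mice were male littermates, 8 to 10 weeks old and untreated, of the genotypes Spta sph/sph and Spta wt/wt, with 1 library per genotype. The sph allele affects erythroid alpha-spectrin, and homozygous mice have fragile red blood cells. Barcodes carry the suffix 1 or 2, and which suffix belongs to which genotype is not given in the labels or files used here. The libraries are accordingly called library 2 and library 1, genotypes were not compared, and with 1 library of each kind there was no replicate check and no test. All intervals are 95% intervals and cover counting error only.

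Scavenger receptors bind modified lipoproteins, polyanions and cell debris and carry them into endosomes and lysosomes. In the liver this clearance from blood is shared by sinusoidal endothelial cells, which are specialised for rapid endocytosis, and Kupffer cells, the resident macrophages. Stellate cells, which store vitamin A beneath the endothelium, are not known chiefly as scavengers.

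Start regions for 4 of the 9 genes, Stab1, Stab2, Mrc1 and Cd36, were matched in the RefSeq promoter table used here, and these 4 are shown because fragments were counted over them. Each is 300 bases from RefSeq on GRCm38.p6, running from 250 bases before the start site to 50 bases after it, 5′ to 3′ on the gene's own strand. The Stab1 region is chr14:31168592-31168891 on the minus strand, and the Stab2 region is chr10:87007893-87008192 on the minus strand. The Mrc1 region is chr2:14229164-14229463 on the plus strand, and the Cd36 region is chr5:17835847-17836146 on the minus strand. Capitals mark the GC box word GGGCGG or its reverse complement.
Stab1: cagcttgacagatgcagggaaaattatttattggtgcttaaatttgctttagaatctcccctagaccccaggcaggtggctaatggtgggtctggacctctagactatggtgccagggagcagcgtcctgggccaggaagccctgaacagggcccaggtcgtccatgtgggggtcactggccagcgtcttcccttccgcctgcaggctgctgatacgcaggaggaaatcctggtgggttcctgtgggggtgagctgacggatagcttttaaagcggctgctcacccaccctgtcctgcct
Stab2: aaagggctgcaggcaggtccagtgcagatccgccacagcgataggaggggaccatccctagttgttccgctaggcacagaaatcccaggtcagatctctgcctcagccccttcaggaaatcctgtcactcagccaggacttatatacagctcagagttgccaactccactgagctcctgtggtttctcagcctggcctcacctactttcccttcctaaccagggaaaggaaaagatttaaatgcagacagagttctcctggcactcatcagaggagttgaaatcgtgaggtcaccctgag
Mrc1: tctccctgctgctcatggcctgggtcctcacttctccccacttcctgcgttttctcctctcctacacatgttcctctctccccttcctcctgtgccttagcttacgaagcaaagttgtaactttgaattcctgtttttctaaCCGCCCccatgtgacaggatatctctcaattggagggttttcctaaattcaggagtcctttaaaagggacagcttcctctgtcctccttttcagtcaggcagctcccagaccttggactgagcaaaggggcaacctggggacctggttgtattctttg
Cd36: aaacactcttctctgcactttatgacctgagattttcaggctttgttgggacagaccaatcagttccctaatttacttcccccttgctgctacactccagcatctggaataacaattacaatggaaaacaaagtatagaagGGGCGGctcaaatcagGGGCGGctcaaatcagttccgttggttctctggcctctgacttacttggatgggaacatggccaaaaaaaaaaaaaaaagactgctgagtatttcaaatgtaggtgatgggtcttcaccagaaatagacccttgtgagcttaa
Cd36 held the GC box word at bases 142 to 147 and 158 to 163 of the printed run, and Mrc1 held it on the opposite strand at bases 143 to 148. The word occurs in 35.7% of 32851 RefSeq promoters of this length. Words for PU.1 (GAGGAAGT, in 3.20% of the promoters), AP-1 (TGANTCA, 7.81%), GATA factors (AGATAA, 11.2%), the TATA box (TATAAA, 13.6%), MiT/TFE factors (CACGTG, 7.15%) and MAF factors (TGCTGAC, 4.67%) were also searched on both strands and were not found in these windows. The words found do not overlap each other, and a match describes only the letters of the window.

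Library 2 held 21656110 fragments and library 1 held 11401694. Over all called cells, the median was 13186 fragments per cell in library 2 and 13220 in library 1. Their median share of fragments in peaks was 53.7% and 72.1%. Among the cells kept after filtering, the share of fragments in pile-ups of a single cell was 12.1% and 0.652%. Clusters built without any bin within 100 kb of the 9 genes gave Kupffer-like cells (187 in library 2, 325 in library 1), stellate-like cells (24 and 67) and endothelial-like cells (53 and 100). Unnamed clusters held 213 cells of library 2 and 40 of library 1. Of the 187 Kupffer-like cells of library 2, 174 lay in 1 cluster. Its score for the Kupffer marker list, by which clusters were named, was 0.50, against 0.98 to 1.16 in the other Kupffer-like clusters. The 10 Kupffer markers summed to 581 and 853 CPM, that is, fragments scaled to a common class total, in Kupffer-like cells, 149 and 76.4 CPM in stellate-like cells and 75.9 and 108 CPM in endothelial-like cells. The 14 endothelial markers summed to 402 and 451 CPM in Kupffer-like cells, 616 and 479 CPM in stellate-like cells and 1964 and 2928 CPM in endothelial-like cells. The 14 stellate markers summed to 165 and 134 CPM in Kupffer-like cells, 1072 and 1412 CPM in stellate-like cells and 184 and 174 CPM in endothelial-like cells. Each class was highest for its own list in both libraries. Of the 10 Kupffer markers, 8 had a fragment in stellate-like cells of library 1, where C1qa was at 0. Of the 14 endothelial markers, 13 had one in stellate-like cells of library 2, where Robo4 was at 0. Of the 14 stellate markers, 12 and 13 had one in endothelial-like cells of library 2 and library 1, with Hand2 and Lum at 0. Erg, however, had 157 CPM in stellate-like cells of library 2, against 230 CPM in endothelial-like cells. Pecam1 had 133 CPM in stellate-like cells of library 1, and Reln had 91.2 and 56.0 CPM in endothelial-like cells. The part of DNA from other cell types in the values below was not tested.

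Accessibility of a gene is the number of fragments over its body and 2 kb on either side, summed over the cells of a class. Ratios between classes are on the log2 scale relative to the median gene of the same comparison, and a gene was called past 2-fold at 1 or more in either direction, among genes with at least 50 fragments in both sums together. Between Kupffer-like and endothelial-like cells of library 2, 4 of 9 members were past 2-fold, Cd36 and Colec12 higher and Stab1 and Lyve1 lower, against 22.8% of 12922 genes tested (12.2% higher and 10.6% lower). In library 1, 3 of 9 were past 2-fold, Cd36 and Msr1 higher and Scara5 lower, against 22.0% of 15007 genes (12.4% higher and 9.67% lower). The median of the 9 members was 0.14 in library 2 and 0.11 in library 1. Cd36, Msr1, Mrc1 and Colec12 had intervals above the median gene in both libraries, and Stab1, Stab2 and Lyve1 had intervals below it in both.

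**Figure D1:**
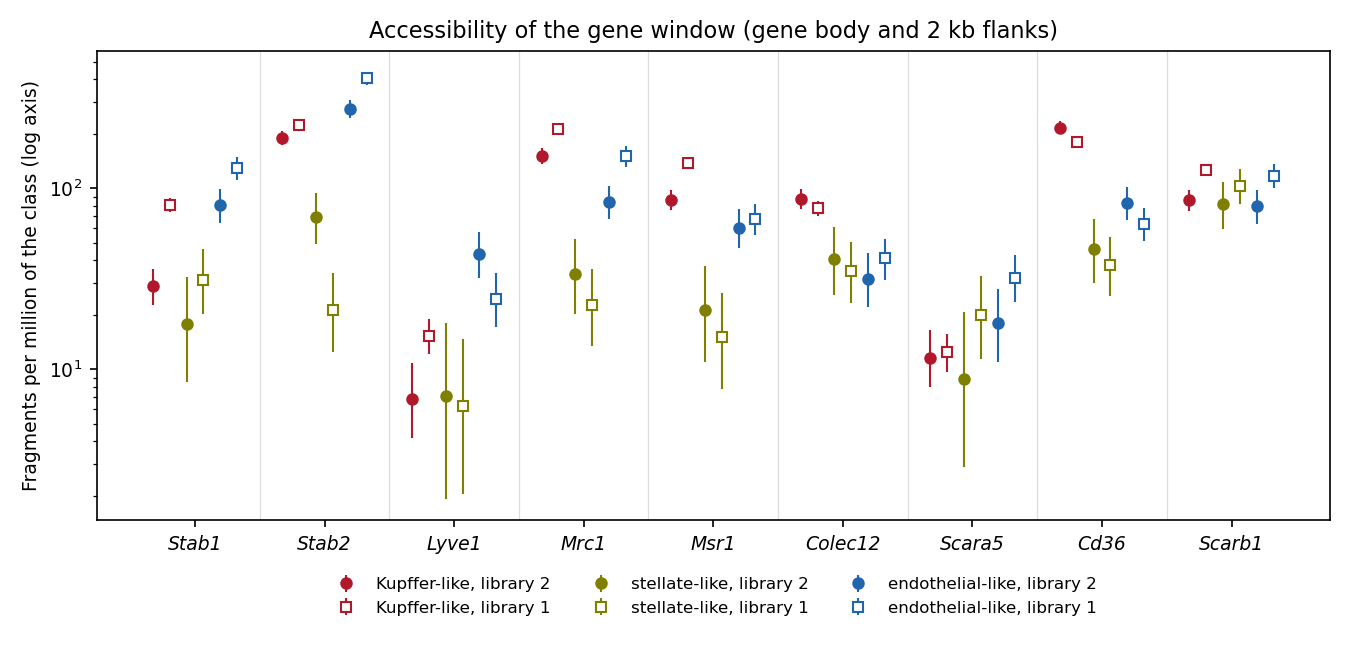
Accessibility of the 9 genes in CPM (log axis), with exact Poisson 95% intervals, for Kupffer-like (red), stellate-like (olive) and endothelial-like cells (blue); filled points are library 2 and open squares library 1. Stab2 lay at 189 and 223 CPM in Kupffer-like cells against 273 and 404 CPM in endothelial-like cells, and Cd36 at 216 and 181 CPM against 83.1 and 63.5 CPM.

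Stab1 and Stab2 encode the stabilins, large multidomain receptors of sinusoidal endothelium, and both were most accessible there. Stab1 (chr14:31139017-31168651) had 28.7 and 80.8 CPM in Kupffer-like cells of library 2 and library 1, 17.7 and 31.3 CPM in stellate-like cells and 80.4 and 129 CPM in endothelial-like cells. The Kupffer-like over endothelial-like ratio was -1.45 (-1.90 to -0.996) for library 2 and -0.67 (-0.92 to -0.41) for library 1. The order in library 1 was endothelial-like, Kupffer-like, stellate-like with no intervals touching, while in library 2 the Kupffer-like and stellate-like intervals overlapped. The library 2 call ended with Leiden resolution 1 (-0.58) and with classes set by marker fragments (-0.99). Per kilobase, endothelial-like cells of library 1 held 3.84 CPM, which put Stab1 at the 91.2nd percentile of genes by density, against a median gene of 0.584 CPM per kb.

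Within Stab1 the counts of the named tiles differed between classes. The 3 fullest tiles over the 6 sums can hold that rank through 1 class alone, so their ratios describe those tiles only. The printed bases were set by the start site. The 1 kb tile that holds the start site (chr14:31168001-31169000) had 1 and 8 fragments in Kupffer-like cells, 1 and 0 in stellate-like cells and 23 and 47 in endothelial-like cells of library 2 and library 1. The 300 bases printed above had 1 and 5 fragments in Kupffer-like cells against 21 and 46 in endothelial-like cells, a ratio of -5.12 (-11.04 to -3.03) for library 2 and -5.01 (-6.83 to -3.81) for library 1. In stellate-like cells the printed bases had 1 and 0 fragments, and in library 1 the 95% interval of the stellate-like over endothelial-like ratio lay below -2.59. The reverse was seen 8.14 kb inside the gene (chr14:31160001-31161000), with 35 and 155 fragments in Kupffer-like cells, 2 and 2 in stellate-like cells and 4 and 9 in endothelial-like cells. That tile had a Kupffer-like over endothelial-like ratio of 1.70 (0.37 to 3.81) for library 2 and 2.10 (1.21 to 3.33) for library 1. Another place, 2.14 kb inside the gene (chr14:31166001-31167000), was open in both classes, with 32 and 119 fragments in Kupffer-like cells, 1 and 3 in stellate-like cells and 8 and 22 in endothelial-like cells. The 3 tiles fullest in Kupffer-like cells of each library held 86.25% and 66.1% of the Kupffer-like fragments of Stab1 in library 2 and library 1. The far flank overlaps the neighbouring gene Nt5dc2, and its tile chr14:31138001-31139000 had 0 and 6 fragments in Kupffer-like cells, 1 and 4 in stellate-like cells and 9 and 18 in endothelial-like cells, so part of the window count of Stab1 may belong to Nt5dc2.

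Stab2 (chr10:86841194-87008038), the receptor that clears hyaluronan, had 189 and 223 CPM in Kupffer-like cells of library 2 and library 1, 69.0 and 21.3 CPM in stellate-like cells and 273 and 404 CPM in endothelial-like cells. The order endothelial-like, Kupffer-like, stellate-like held in both libraries with no intervals touching. The Kupffer-like over endothelial-like ratio was -0.49 (-0.70 to -0.28) for library 2 and -0.85 (-0.99 to -0.71) for library 1, short of 2-fold. A fragment over Stab2 was seen in 74.3% and 85.8% of Kupffer-like cells and in 84.9% and 95% of endothelial-like cells.

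As in Stab1, the named tiles differed in which class filled them, and they were picked for their fullness over the same sums. The printed start region had 0 and 0 fragments in Kupffer-like cells, 0 and 0 in stellate-like cells and 3 and 11 in endothelial-like cells, and in library 1 the 95% interval of the Kupffer-like over endothelial-like ratio lay below -3.26. The tile 15.4 kb inside the gene (chr10:86992001-86993000) had 2 and 8 fragments in Kupffer-like cells, 0 and 1 in stellate-like cells and 38 and 45 in endothelial-like cells, with Kupffer-like over endothelial-like ratios of -5.22 (-8.62 to -3.57) and -4.36 (-5.72 to -3.33). Its neighbour 17.4 kb inside (chr10:86990001-86991000) was open in both classes, with 45 and 120 fragments in Kupffer-like cells, 2 and 0 in stellate-like cells and 28 and 75 in endothelial-like cells. Towards the far end, 122 kb inside the gene, the tile chr10:86885001-86886000 had 68 and 147 fragments in Kupffer-like cells, 2 and 0 in stellate-like cells and 2 and 2 in endothelial-like cells. Its ratios were 3.50 (1.90 to 6.88) for library 2 and 3.95 (2.39 to 7.32) for library 1. The adjoining tile chr10:86886001-86887000, named after its values were seen, had 58 and 121 fragments in Kupffer-like cells, 1 and 0 in stellate-like cells and 4 and 2 in endothelial-like cells. Both far tiles and the shared tile together held 32.6% and 30.8% of the Kupffer-like fragments of Stab2 in library 2 and library 1. Of Stab2 tiles with at least 30 fragments in library 2, 2 of 5 were past 2-fold higher in Kupffer-like than in endothelial-like cells and 1 lower. In library 1, 7 of 13 were higher and 2 lower. Among all tiles tested, 28.0% were higher and 12.0% lower in library 2, and 43.3% and 11.9% in library 1.

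**Figure D2:**
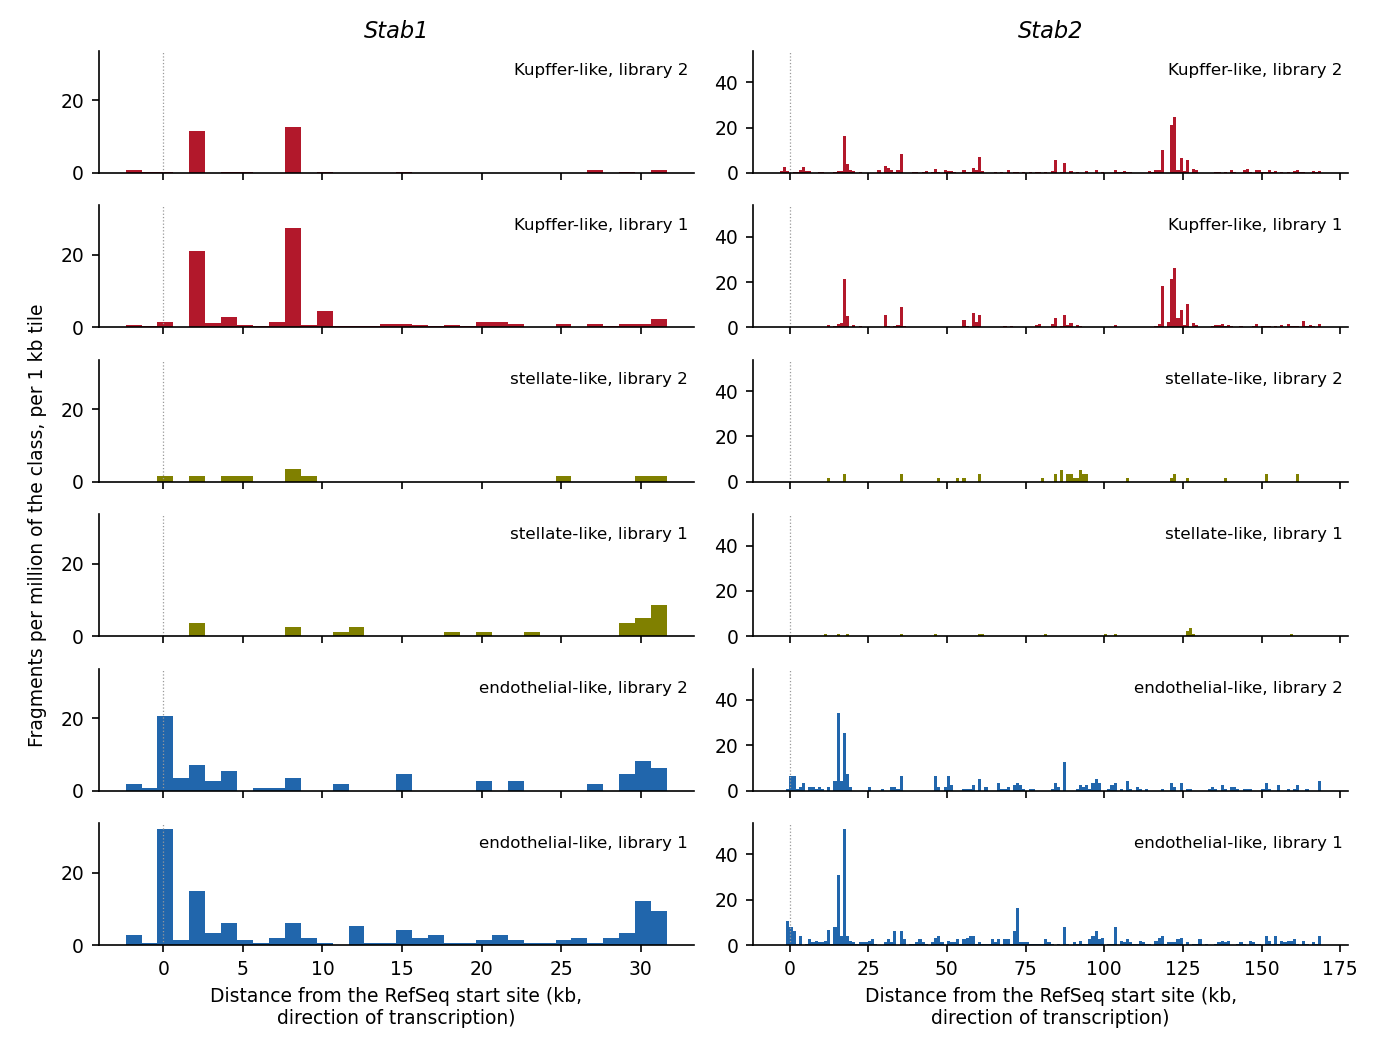
Accessibility in CPM of 1 kb tiles across Stab1 and Stab2, by distance in kb from the RefSeq start site (dotted line), 1 row per class and library. At the Stab1 start site endothelial-like cells reached 20.8 and 32.1 CPM against 0.363 and 1.42 CPM in Kupffer-like cells, and Kupffer-like cells reached 24.7 and 26.1 CPM 122 kb inside Stab2.

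Lyve1 (chr7:110850607-110862953), a hyaluronan receptor of lymphatic and sinusoidal endothelium, was sparsely covered. It had 6.90 and 15.3 CPM in Kupffer-like cells of library 2 and library 1 (19 and 86 fragments), 7.08 and 6.27 CPM in stellate-like cells (4 and 5 fragments) and 43.4 and 24.6 CPM in endothelial-like cells (48 and 36 fragments). Endothelial-like cells were highest in both libraries, with a Kupffer-like over endothelial-like ratio of -2.59 (-3.46 to -1.82) for library 2 and -0.69 (-1.26 to -0.07) for library 1. In library 2, 43.75% of the endothelial-like fragments came from 1 cell. With pile-ups masked, 29 endothelial-like fragments were left against 19 in Kupffer-like cells, a ratio of -1.84 (-2.77 to -0.97) on fewer than the 50 fragments required for a call. The library 2 call of Lyve1 was kept under 8 of 13 alternatives. The fullest tile was the flank beside the higher-coordinate end of the gene (chr7:110863001-110864000), with 6 and 42 fragments in Kupffer-like cells, 0 and 0 in stellate-like cells and 11 and 17 in endothelial-like cells.

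Mrc1 (chr2:14229414-14332023), the mannose receptor of macrophages and sinusoidal endothelium, had 151 and 213 CPM in Kupffer-like cells of library 2 and library 1, 33.6 and 22.6 CPM in stellate-like cells and 84.0 and 151 CPM in endothelial-like cells. Between Kupffer-like and endothelial-like cells the ratio was 0.88 (0.56 to 1.22) for library 2 and 0.50 (0.29 to 0.72) for library 1, and the intervals of the 3 classes did not touch in either library. Its start site was open in both classes: the printed region had 16 and 55 fragments in Kupffer-like cells, 0 and 1 in stellate-like cells and 8 and 13 in endothelial-like cells. The ratio there was -0.32 (-1.59 to 1.16) for library 2 and 0.10 (-0.74 to 1.14) for library 1, so no difference was detectable at this depth. In library 2, 3 of 5 Mrc1 tiles with at least 30 fragments were past 2-fold higher in Kupffer-like than in endothelial-like cells and 0 lower (28.0% and 12.0% of all tiles). In library 1, 7 of 13 Mrc1 tiles were higher and 1 lower (43.3% and 11.9% of all tiles). Among them, the tile 21.1 kb inside the gene (chr2:14250001-14251000) had 62 and 138 fragments in Kupffer-like cells, 2 and 0 in stellate-like cells and 1 and 5 in endothelial-like cells. That tile had ratios of 4.10 (2.15 to 10.0) and 2.72 (1.59 to 4.50), and it ranked among the fullest through its Kupffer-like fragments. At 10.1 kb (chr2:14239001-14240000) the counts were 13 and 77 in Kupffer-like cells, 0 and 0 in stellate-like cells and 12 and 33 in endothelial-like cells, with a library 1 ratio of -0.72 (-1.32 to -0.08). The tile 66.1 kb inside the gene (chr2:14295001-14296000), named after its values were seen, had 4 and 11 fragments in Kupffer-like cells, 8 and 9 in stellate-like cells and 6 and 16 in endothelial-like cells. It held 42.1% and 50.0% of all stellate-like fragments over Mrc1.

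Among the class A receptors, Msr1 (chr8:39543232-39642750), the macrophage receptor for modified low-density lipoprotein, had 86.4 and 138 CPM in Kupffer-like cells of library 2 and library 1, 21.2 and 15.04 CPM in stellate-like cells and 60.5 and 67.6 CPM in endothelial-like cells. The Kupffer-like over endothelial-like ratio was 0.54 (0.15 to 0.96) for library 2 and 1.03 (0.73 to 1.35) for library 1. In endothelial-like cells of library 2, 23.9% of the 67 fragments came from 1 cell. The library 2 ratio ran from -0.10 to 1.25 over the 13 alternatives. The library 1 call rested close to the threshold and ended with the gene body alone (0.84), with cells thinned (0.90) and with insertions counted (0.997). The Msr1 tile 23.3 kb from the higher-coordinate end (chr8:39619001-39620000) had 53 and 110 fragments in Kupffer-like cells, 0 and 2 in stellate-like cells and 3 and 1 in endothelial-like cells. The tile at that end of the gene (chr8:39642001-39643000) had 37 and 99 fragments in Kupffer-like cells, 2 and 1 in stellate-like cells and 4 and 3 in endothelial-like cells. Both held few fragments outside Kupffer-like cells, with library 1 ratios of 4.27 (2.34 to 10.2) and 2.89 (1.52 to 5.41). Both ranked among the fullest through their Kupffer-like fragments, so these ratios describe those tiles only. The tile 6.25 kb from that end (chr8:39636001-39637000) ran the other way, with 2 and 18 fragments in Kupffer-like cells, 0 and 0 in stellate-like cells and 11 and 29 in endothelial-like cells. Its library 1 ratio was -2.61 (-3.56 to -1.73). In stellate-like cells of library 1, 58.3% of the 12 Msr1 fragments came from 1 cell.

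Colec12 (chr18:9707648-9877995), a class A receptor with a collectin head, had 87.1 and 77.4 CPM in Kupffer-like cells, 40.7 and 35.1 CPM in stellate-like cells and 31.6 and 41.0 CPM in endothelial-like cells of library 2 and library 1. Its Kupffer-like over endothelial-like ratio was 1.48 (0.98 to 2.06) in library 2, past 2-fold under all 13 alternatives, and 0.92 (0.53 to 1.34) in library 1. Stellate-like and endothelial-like cells overlapped in both libraries. The level was low for the length of the gene, with 0.500 and 0.444 CPM per kb in Kupffer-like cells, the 48.8th and 43.0th percentile of genes. A tile 27.9 kb from the lower-coordinate end, named after its values were seen, had 15 and 51 fragments in Kupffer-like cells, 0 and 0 in stellate-like cells and 1 and 1 in endothelial-like cells.

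Scara5 (chr14:65666403-65764826), a receptor for ferritin, was the least accessible member per kilobase in Kupffer-like cells, with 0.113 and 0.121 CPM per kb in library 2 and library 1. Its window had 11.6 and 12.4 CPM in Kupffer-like cells, 8.85 and 20.1 CPM in stellate-like cells and 18.1 and 32.1 CPM in endothelial-like cells of library 2 and library 1. Kupffer-like cells stood to endothelial-like cells at -0.61 (-1.45 to 0.28) for library 2 and -1.37 (-1.91 to -0.80) for library 1, where 25.5% of the 47 endothelial-like fragments came from 1 cell. None of its tiles reached 30 fragments in a Kupffer-like and endothelial-like pair, and the tile at the lower-coordinate end (chr14:65666001-65667000) had 0 and 5 fragments in Kupffer-like cells, 0 and 0 in stellate-like cells and 4 and 3 in endothelial-like cells.

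Of the class B receptors, Cd36 (chr5:17781690-17888959), which takes up long-chain fatty acids and oxidised lipoproteins, was the most accessible member per kilobase in Kupffer-like cells of library 2, with 1.94 CPM per kb. In library 1, where Stab1 (2.40), Mrc1 (1.99) and Scarb1 (1.85) were higher, Cd36 had 1.63 CPM per kb. Its window had 216 and 181 CPM in Kupffer-like cells, 46.0 and 37.6 CPM in stellate-like cells and 83.1 and 63.5 CPM in endothelial-like cells of library 2 and library 1. The Kupffer-like over endothelial-like ratio was 1.41 (1.10 to 1.75) for library 2 and 1.51 (1.21 to 1.84) for library 1, and the library 2 call ended with Leiden resolution 1 (0.85), where 12 endothelial-like cells of library 2 remained. A fragment over Cd36 was seen in 81.3% and 86.2% of Kupffer-like cells, 45.8% and 23.9% of stellate-like cells and 64.2% and 49.0% of endothelial-like cells.

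The tile with most Kupffer-like fragments of Cd36 stood 18.6 kb upstream of the RefSeq start site used here, within the longer gene body (chr5:17854001-17855000). It had 81 and 186 fragments in Kupffer-like cells, 0 and 1 in stellate-like cells and 1 and 1 in endothelial-like cells, with ratios of 4.49 (2.54 to 10.4) and 5.02 (3.11 to 10.9). The tile 40.6 kb upstream (chr5:17876001-17877000) was shared, with 50 and 103 fragments in Kupffer-like cells, 6 and 6 in stellate-like cells and 12 and 15 in endothelial-like cells. The printed start region had 71 and 72 fragments in Kupffer-like cells, 0 and 1 in stellate-like cells and 14 and 17 in endothelial-like cells. There the Kupffer-like over endothelial-like ratio was 1.02 (0.23 to 2.01) for library 2 and 0.12 (-0.63 to 1.00) for library 1. In library 1 a difference at the start site was thus not detectable at this depth. The upstream tile was named as 1 of the 3 fullest of the gene, a rank it reached through its Kupffer-like fragments. Its ratios are therefore not set against those of the start region.

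**Figure D3:**
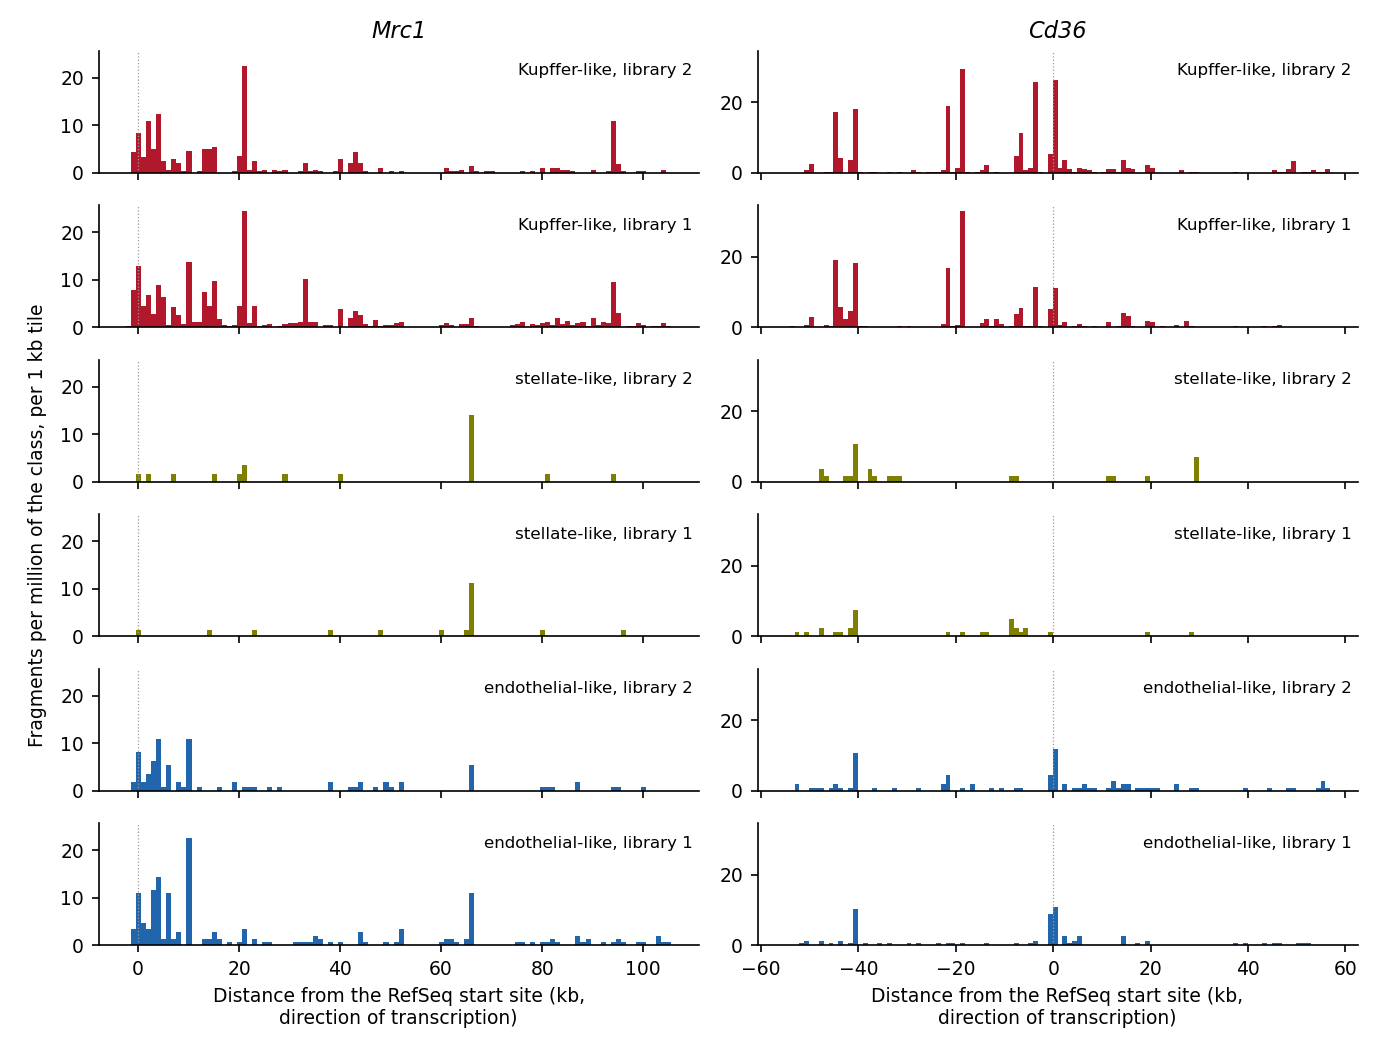
Accessibility in CPM of 1 kb tiles across Mrc1 and Cd36, by distance in kb from the RefSeq start site (dotted line), 1 row per class and library. Kupffer-like cells reached 22.5 and 24.5 CPM 21.1 kb inside Mrc1, where endothelial-like cells had 0.903 and 3.42 CPM.

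Scarb1 (chr5:125277087-125341094), the receptor for high-density lipoprotein, had levels whose intervals overlapped between the 3 classes. It had 85.7 and 126 CPM in Kupffer-like cells, 81.4 and 103 CPM in stellate-like cells and 79.5 and 117 CPM in endothelial-like cells of library 2 and library 1. Its Kupffer-like over endothelial-like ratio was 0.14 (-0.21 to 0.52) for library 2 and 0.11 (-0.13 to 0.36) for library 1. In endothelial-like cells of library 2, 21.6% of the 88 fragments came from 1 cell and 14.8% lay in pile-ups. With pile-ups masked, the ratio was 0.40 (0.02 to 0.80) for library 2, above the median gene, and 0.09 (-0.15 to 0.34) for library 1. The tile at its higher-coordinate end (chr5:125341001-125342000) had 40 and 101 fragments in Kupffer-like cells, 6 and 5 in stellate-like cells and 12 and 21 in endothelial-like cells. Of 9 Scarb1 tiles with at least 30 fragments in library 1, 4 were past 2-fold higher in Kupffer-like than in endothelial-like cells and 1 lower. These counts were near the shares among all tiles tested, 43.3% higher and 11.9% lower. The lower one, the tile 21.6 kb from that end (chr5:125319001-125320000), named after its values were seen, had 0 and 5 fragments in Kupffer-like cells, 2 and 1 in stellate-like cells and 13 and 30 in endothelial-like cells. Its library 1 ratio was -4.41 (-6.24 to -3.14).

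Over all 894 tiles of the 9 genes, 23 held at least 30 fragments in the Kupffer-like and endothelial-like pair of library 2, of which 15 were past 2-fold higher in Kupffer-like cells and 1 lower, against 28.0% higher and 12.0% lower among all tiles tested. In library 1, 32 of 59 were higher and 6 lower, against 43.3% and 11.9%. Kupffer-like cells held more fragments in all than endothelial-like cells, so a tile could more readily reach 30 fragments through them, and these counts say nothing of the tiles that were too shallow. Between Kupffer-like and stellate-like cells, 17 of 20 tiles were higher and 0 lower in library 2 (32.1% and 6.41% of all tiles), and 50 of 53 higher and 2 lower in library 1 (47.0% and 8.03%). Between stellate-like and endothelial-like cells, 0 of 2 were higher and 2 lower in library 2 (3.65% and 15.7% of all tiles), and 0 of 6 higher and 5 lower in library 1 (7.2% and 17.8%). Library 2 over library 1, 4 of 69 tiles were higher and 7 lower in Kupffer-like cells (3.55% and 16.0% of all tiles), and 0 of 10 higher and 1 lower in endothelial-like cells (4.23% and 8.84%). The 4 higher ones were 3 tiles of Cd36 and 1 of Mrc1.

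**Figure D4:**
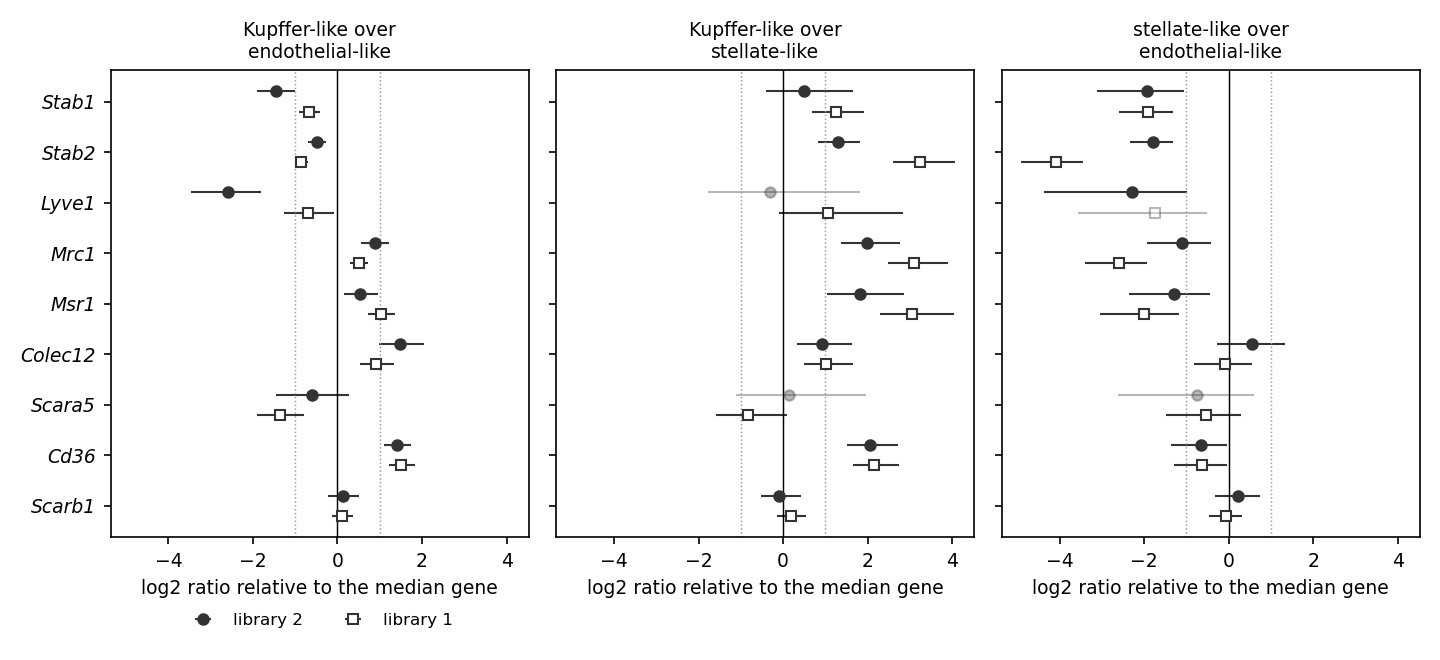
Log2 ratios of the 9 genes relative to the median gene between classes, with exact 95% intervals, for library 2 (filled) and library 1 (open squares); dotted lines mark 2-fold and pale points had under 50 fragments. Cd36 lay at 1.41 and 1.51 in Kupffer-like over endothelial-like cells, and Stab2 at -1.79 and -4.09 in stellate-like over endothelial-like cells.

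Stellate-like cells were low for most of these receptors. Against them, Kupffer-like cells of library 2 were past 2-fold higher for 4 of 7 members tested (Msr1, Cd36, Stab2 and Mrc1) and lower for 0, against 11.4% and 12.6% of 12231 genes. In library 1, 7 of 9 were higher (these 4 with Stab1, Lyve1 and Colec12) and 0 lower, against 13.1% and 11.7% of 14801 genes. The largest ratios were 3.25 (2.60 to 4.07) for Stab2, 3.10 (2.47 to 3.90) for Mrc1 and 3.04 (2.29 to 4.06) for Msr1, all in library 1, where library 2 gave 1.29 (0.84 to 1.82), 1.99 (1.36 to 2.77) and 1.82 (1.05 to 2.85). The median of the members tested was 1.29 in library 2 and 1.24 in library 1. With classes set by marker fragments, the library 2 calls of Msr1 (0.64) and Stab2 (0.19) ended. Colec12, at 1.02 (0.49 to 1.65) in library 1, fell under the threshold with 4 alternatives, the lowest 0.81. Lyve1 rested on 5 stellate-like fragments in library 1, its interval of -0.09 to 2.85 held 0, and its call ended with the gene body alone (0.33).

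Against endothelial-like cells, stellate-like cells of library 2 were past 2-fold lower for 5 of 8 members tested (Stab1, Stab2, Lyve1, Mrc1 and Msr1) and higher for 0, against 8.24% and 9.85% of 8672 genes. In library 1, 4 of 8 were lower (Stab1, Stab2, Mrc1 and Msr1) and 0 higher, against 7.66% and 8.33% of 11012 genes. Stab1 had ratios of -1.94 (-3.11 to -1.06) for library 2 and -1.90 (-2.59 to -1.32) for library 1. Stab2 had -1.79 (-2.32 to -1.32) and -4.09 (-4.92 to -3.44), with 39 and 17 stellate-like fragments. In library 2, 35.9% of these Stab2 fragments came from 1 cell, and 28.2% lay in pile-ups, without which the ratio was -2.27 (-2.91 to -1.74). With classes set by marker fragments, the library 2 calls of Stab1 (-0.53), Stab2 (-0.65), Mrc1 (-0.67) and Msr1 (-0.46) ended. That of Msr1 ended also with doublets left out (-0.77) and with cells thinned (-0.26). The library 2 calls of Stab1, Stab2, Lyve1, Mrc1 and Msr1 were kept under 10, 12, 7, 11 and 9 of 13 alternatives. Lyve1 rested on 4 stellate-like fragments in library 2, and with pile-ups masked its 4 and 29 fragments were too few for a call. The median of the members tested was -1.20 in library 2 and -1.26 in library 1, and Scarb1 and Colec12 had intervals that held 0 in both.

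Between libraries, the Kupffer-like cells came from clusters that were hardly shared: 174 of the 187 cells of library 2 lay in a cluster with no cell of library 1, and the 325 of library 1 lay in clusters of 122, 118 and 85 cells. Library, cluster and the lower share of fragments in peaks of library 2 cannot be told apart here. In Kupffer-like cells, 1 of 9 members was past 2-fold, Stab1, lower in library 2, against 10.5% of 15308 genes (6.92% higher and 3.62% lower). Stab1 had 28.7 CPM (22.7 to 35.7) for library 2 and 80.8 CPM (73.5 to 88.6) for library 1, a ratio of -1.28 (-1.65 to -0.94). It stayed past 2-fold under all 13 alternatives, nearest the threshold at -1.02 without the cell filter and -1.03 with Leiden resolution 1. Adding the unnamed cluster to endothelial-like cells could not change this ratio, and clustering with all bins left it at -1.28. In the cluster that both libraries share, Stab1 had 27.3 CPM (3.31 to 98.6) in 13 cells of library 2 and 89.3 CPM (71.9 to 110) in 122 cells of library 1, on 2 fragments in library 2. The tiles at 2.14 kb and 8.14 kb had ratios of -0.64 (-1.27 to -0.08) and -0.89 (-1.48 to -0.37). They were picked for their fullness over sums that include library 2, and their intervals overlap that of the gene. Their ratios are therefore not set against that of the gene. In Kupffer-like cells, 22 of the 34 Stab1 tiles had no fragment in library 2 and 0 of 34 had none in library 1. The Kupffer-like sums were 2754963 and 5632475 fragments.

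Cd36 went the other way in Kupffer-like cells, with a library 2 over library 1 ratio of 0.46 (0.31 to 0.61), and this was larger at its printed start region, where 71 fragments in library 2 stood against 72 in the deeper Kupffer-like sum of library 1. The ratio there was 1.22 (0.73 to 1.71), while the upstream tile at 18.6 kb gave 0.05 (-0.35 to 0.42). Among the other members in Kupffer-like cells, Colec12 was higher in library 2 at 0.38 (0.15 to 0.61). Lyve1 was lower at -0.91 (-1.74 to -0.21), on 19 and 86 fragments, Msr1 at -0.46 (-0.68 to -0.25), Scarb1 at -0.35 (-0.57 to -0.13) and Mrc1 at -0.28 (-0.45 to -0.12). Stab2, at -0.03 (-0.18 to 0.12), and Scara5, at 0.12 (-0.54 to 0.73), had intervals that held the median gene.

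Endothelial-like cells came from 1 cluster that both libraries shared, and 0 of 9 members were past 2-fold there, against 7.01% of 11381 genes (4.6% higher and 2.42% lower). Stab1 was at -0.55 (-0.94 to -0.19), Stab2 at -0.44 (-0.65 to -0.24), Mrc1 at -0.72 (-1.09 to -0.36) and Scarb1 at -0.43 (-0.83 to -0.06), all lower in library 2. Cd36 was at 0.51 (0.08 to 0.94), higher in library 2 as in Kupffer-like cells, but at 0.00 with doublets left out. Lyve1 was at 0.94 (0.29 to 1.61), and at 0.25 (-0.51 to 0.99) with pile-ups masked. Msr1, Colec12 and Scara5 had intervals that held the median gene. The Stab1 value was -1.25 with Leiden resolution 1 and -0.06 with cells thinned. In stellate-like cells the sums were small, so only values are given: Stab2 was at 1.82 (0.99 to 2.76), on the 39 and 17 fragments given above. With pile-ups masked it was at 1.38 (0.47 to 2.36) on 28 and 17 fragments, and with cells thinned at 3.53.

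**Figure D5:**
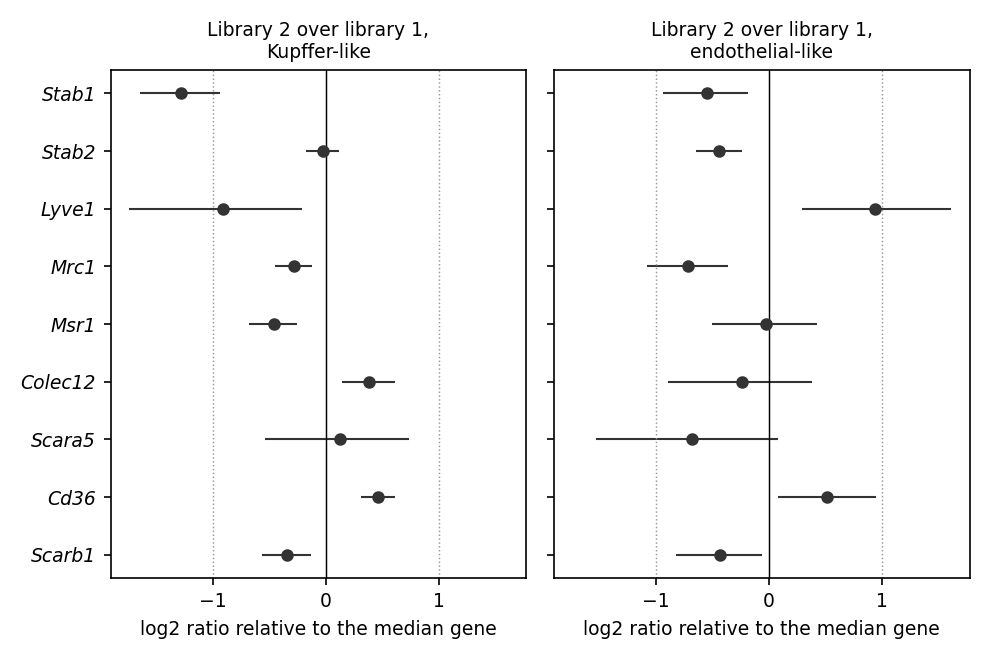
Log2 ratios of library 2 over library 1 for the 9 genes relative to the median gene, with exact 95% intervals, in Kupffer-like and endothelial-like cells; dotted lines mark 2-fold. Stab1 lay at -1.28 in Kupffer-like cells and -0.55 in endothelial-like cells, and Lyve1 at -0.91 and 0.94.

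Outside the 3 classes, monocyte or neutrophil-like cells (84 in library 2, 52 in library 1) had 142 and 198 CPM at Cd36, where Kupffer-like cells had 216 and 181 CPM. The library 2 intervals, 126 to 160 and 199 to 234 CPM, did not touch, and those of library 1, 167 to 233 and 170 to 193 CPM, overlapped. The monocyte or neutrophil-like cells had 31.7 and 35.8 CPM at Stab2 and 69.8 and 85.3 CPM at Mrc1. The 25 hepatocyte-like cells of library 1 had 167 CPM (131 to 209) at Scara5, above the 12.4 CPM of Kupffer-like cells and 32.1 CPM of endothelial-like cells of that library, and 131 CPM at Colec12 and 174 CPM at Scarb1. Library 2 had 1 hepatocyte-like cell, so these values had no counterpart.

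Over the 6 sums of the 3 classes in both libraries, the genes most like each member were ranked by the root mean square difference of log2 CPM, each gene centred on its own mean. Msr1 and Mrc1 were among each other's 3 nearest at 0.22, beside Tfec (0.19) and Flacc1 (0.21) for Msr1 and Inpp5d (0.14) and Gm13420 (0.19) for Mrc1. Stab1 was nearest to Elk3 (0.21), Gm31665 (0.26) and Slc25a14 (0.29), and Stab2 to Ctla2b (0.29), Cmtm8 (0.29) and Lfng (0.35). Lyve1 was nearest to Sdcbp2 (0.26), Cyb561 (0.29) and Gm17359 (0.31). Cd36 was nearest to Cd6 (0.12), Cyba (0.12) and Mrap2 (0.13), and Colec12 to Tmem104 (0.07), Hebp1 (0.11) and Mapre2 (0.11). Scarb1 was nearest to Rbmxl1 (0.06), Afg3l1 (0.07) and Cenpb (0.07), and Scara5 to Klhdc8a (0.14), Atp6v0a1 (0.15) and Prkd2 (0.15). The nearest genes were thus farther off for the stabilins and Lyve1 than for Scarb1, whose level intervals overlapped between the classes of each library.

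A list of 27 other endocytosis genes (other scavenger receptors, lipoprotein receptors, clathrin adaptors, caveolae and endosomal proteins) was counted beside the members. Between Kupffer-like and endothelial-like cells of library 2, 5 of the 23 tested were past 2-fold higher, 3 lower and 15 neither, against 12.2% higher and 10.6% lower among all genes tested. In library 1, 5 of 25 were higher, 4 lower and 16 neither, against 12.4% and 9.67%. Its median was 0.41 in library 2 and 0.08 in library 1. Highest by the mean over both libraries were the hemoglobin receptor Cd163 (3.46 and 4.10), the lipoprotein receptor Lrp1 (3.29 and 3.09) and the macrophage scavenger receptor Marco (3.31 and 1.16). Lowest by that mean were the inhibitory Fc receptor Fcgr2b (-2.80 and -2.24) and the caveolar coat genes Cavin1 (-2.61 and -2.47) and Cav1, at -2.03 in library 1 and -1.21 on too few fragments for a call in library 2. In Kupffer-like over stellate-like cells, 3 of 20 were higher and 1 lower in library 2 (11.4% and 12.6% of all genes), and 7 of 25 higher and 4 lower in library 1 (13.1% and 11.7%). Between stellate-like and endothelial-like cells, 3 of 18 were higher and 2 lower in library 2 (9.85% and 8.24% of all genes), and 3 of 21 higher and 4 lower in library 1 (8.33% and 7.66%).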

How the data were processed

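Single-nucleus ATAC-seq was deposited for 2 libraries. The submitters' processing notes name genome build GRCm38.p5, Signac 0.2.4, Seurat, R 3.6.1, Cell Ranger and Cell Ranger ATAC 1.2.0. The authors deposited counts of read pairs for each unique fragment and a table of per-barcode counts with their cell calls. The rule of those calls is not described there. Each unique fragment was counted once.

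Called cells were kept from 1000 fragments in peaks and a 15% share in peaks, up to a 5% share in blacklisted regions. Bins of 5 kb seen in at least 10 cells entered a TF-IDF transform and an SVD (scikit-learn 1.9.0) of 30 components, without the first. Leiden clustering (leidenalg 0.10.2) at resolution 0.5, on a graph of 20 neighbours weighted by the neighbours that 2 cells share, gave 10 clusters. A cluster was named when the summed fragments of a marker list scored at least 0.25, led the next of 11 lists by 0.2 and rested on 3 markers seen in 10% of cells; this scoring was chosen after the clusters were seen and before any member's value. Cells marked as doublets (87 and 69 by overlapping fragments, 19 and 4 by scrublet in scanpy 1.11.5, for library 2 and library 1) were kept.

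Fragments over each gene of RefSeq GRCm38.p6 were summed per class and library. Levels carry exact Poisson intervals. Log2 ratios, with 0.5 added to both counts, carry exact conditional binomial intervals and were centred on the median gene of the comparison. Their code was run on simulated Poisson counts. Such counts hold no pile-ups, so that run does not check the intervals where pile-ups occur. Tiles of 1 kb were assigned by fragment midpoint and read from 30 fragments. Pile-ups were bins of 20 kb in which a cell had 10 or more fragments and 10 or more times its expectation from the cluster. Named tiles are the 3 fullest of each gene over the 6 sums, and named genes are the members, the 3 nearest genes of each and the 3 highest and 3 lowest of the endocytosis list by mean ratio; exceptions are marked. A named tile could thus rank among the fullest through 1 class alone, so its ratios between classes describe that tile only. The annotation used gives no exons. The members and lists were chosen with earlier results of these data known. Alternatives are given in the closing section.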

Additional observations from a re-analysis of the deposited data

Results flagged for a closer look

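Lyve1, the hyaluronan receptor, moved in opposite directions between the libraries in the classes that cover it best. The library 2 over library 1 ratio relative to the median gene was -0.91 (-1.74 to -0.21) in Kupffer-like cells, on 19 and 86 fragments, and 0.94 (0.29 to 1.61) in endothelial-like cells, on 48 and 36 fragments. Both intervals leave out the median gene, which is why the pair was singled out, but the difference between the classes was not tested. In endothelial-like cells of library 2, 42.0% of the fragments lay in pile-ups. With these masked, the ratio was -0.85 (-1.68 to -0.15) in Kupffer-like cells and 0.25 (-0.51 to 0.99) in endothelial-like cells. With cells thinned to 5000 fragments, the ratios were -1.56 and 0.22.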

How the results depend on the processing

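Across 13 alternatives, no member's ratio changed sign after a call. Of 81 member ratios, 55 stayed within their interval with cells thinned to 5000 fragments, 61 with classes set by marker fragments, 63 with doublets left out, 71 with Leiden resolution 1 and 78 to 81 with the other 9. The counts of members past 2-fold that moved by over 1.5 times were as follows, and every other count was within 1.5 times its main value, with 3 against 4 for Kupffer-like over endothelial-like cells of library 2 with pile-ups masked. For Kupffer-like over endothelial-like cells of library 2, the count was 1 with Leiden resolution 1, against 4. For stellate-like over endothelial-like cells of library 2, it was 3 with Leiden resolution 1, 3 with classes set by marker fragments and 1 with cells thinned, against 5. For library 2 over library 1 in Kupffer-like cells, it was 2 with classes set by marker fragments and 2 without centring on the median gene, against 1. For library 2 over library 1 in endothelial-like cells, it was 3 with Leiden resolution 1, 1 with classes set by marker fragments, 2 with doublets left out and 1 with cells thinned, against 0. At Leiden resolution 1, 12 endothelial-like cells of library 2 remained, against 53. Kupffer-like cells of library 2 numbered 116 at that resolution, 118 without the cell filter and 100 with classes set by marker fragments, against 187. Before centring, the median gene stood at -0.21 for library 2 over library 1 in Kupffer-like cells, -0.15 in stellate-like cells and -0.12 in endothelial-like cells, at 0.15 and 0.10 for Kupffer-like over stellate-like cells and at -0.18 and -0.12 for stellate-like over endothelial-like cells of library 2 and library 1. The alternative that adds the unnamed cluster with endothelial markers was chosen after seeing the data, and it could change only ratios that use endothelial-like cells. Clustering with all bins gave classes of the same size as the main setting. No paired analysis was possible because the genotypes share only replicate number 1 and no suffix is tied to a genotype. The 24 stellate-like cells of library 2 limit every ratio that uses them.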

Other observations

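A cluster of 64 cells in library 2 and 22 in library 1 was left unnamed because its endothelial and erythroid scores were close, at 0.98 and 0.94. It had 218 CPM (184 to 257) at Stab2 in library 2 and 570 CPM (413 to 768) in library 1, where the endothelial-like class had 273 and 404 CPM. Stab1 stood at 75.7 and 79.6 CPM and Lyve1 at 10.6 and 26.5 CPM in this cluster. With its cells added to the endothelial-like class, all 81 member ratios stayed within their intervals. Those that use no endothelial-like cells could not change.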
